A study of Arabidopsis thaliana with 4 samples.

Results

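Methionine chain elongation is the first stage of aliphatic glucosinolate synthesis in Arabidopsis thaliana, and 7 genes of it were followed here through 4 RNA libraries of root calli. The genes were BCAT4 (GeneID 821508), BAT5 (826811), MAM1 (832365), MAM3 (832366, listed as IMS2 in the reference annotation), IPMI1 (825068), IPMI2 (818912) and IMD1 (831270). They are 7 of the 11508 genes that the deposited tables listed at least once. The genes were chosen by their fold changes in these same tables, so their shared direction is a description and no test is given for it.

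Callus is unorganised, dividing plant tissue kept in culture. The calli came from root pieces of 30-day-old wild-type plants of the ecotype Col-0, were raised on Murashige and Skoog medium with 0.5 mg/L of the synthetic auxin 2,4-D, and were moved to fresh medium every 3 weeks. The 4 groups were calli on medium with both 2,4-D and NaCl, with NaCl alone, with 2,4-D alone, and with no addition. Where added, NaCl was at 100 mM and 2,4-D at 0.5 mg/L, and the salt culture lasted 4 weeks. Each group had 1 sample of pooled RNA, so all groups share the root origin and the earlier growth on 2,4-D, and no difference has a replicate check.

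The libraries are named only 1A, 2A, 3A and 4A, and no label ties a code to a medium. Comparisons are therefore given by code, and none can be read as an effect of salt or of 2,4-D. The 6 tables hold log2 fold changes for the genes that the authors called different, with at least a 2-fold difference and a false discovery rate (FDR) under 0.001. Such a call sets one library against another and is no test of a condition. Levels in single libraries were not used here, so the values are differences between libraries and the depth is unknown. In RNA of whole calli, fewer cells of a type and less RNA per cell cannot be told apart.

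Glucosinolates are sulfur-rich defence compounds of the cabbage order, and the aliphatic ones of Arabidopsis are made mostly from methionine whose side chain has been lengthened. The amino group is first removed in the cytosol, the resulting 2-oxo acid enters the plastid, and a cycle of condensation with acetyl-CoA, isomerisation and oxidative decarboxylation adds a methylene group at each turn. The cycle resembles leucine synthesis, and its enzymes are related to those of that pathway. The lengthened amino acid is then turned into a glucosinolate by cytochromes P450, conjugating enzymes and sulfotransferases, and the transcription factor MYB28 is a main activator of these genes in leaves and roots.

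Several of the 7 genes have close relatives, and the sequences below show how close the members of each pair are. MAM1 and MAM3 are neighbouring genes on chromosome 5. Their coding sequences, read from the RefSeq annotation of TAIR10.1 by gene identifier, were identical at 84.2% of 1508 aligned bases. The most alike 60 bases differed at 2 positions, which are in capitals, and lay at coding bases 644 to 703 of MAM1 and 560 to 619 of MAM3.
MAM1: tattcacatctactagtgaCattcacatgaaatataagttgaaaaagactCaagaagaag
MAM3: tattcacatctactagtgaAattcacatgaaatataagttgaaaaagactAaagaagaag

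The longest run of identical bases in the MAM1 and MAM3 alignment was 30. IMD1 was identical to its leucine-pathway relative IMD3 at 95.0% of 1215 aligned coding bases, with a longest identical run of 95. The share of reads assigned to IMD1 and to IMD3 is therefore uncertain. IPMI1 and IPMI2 were identical at 72.8% of 742 aligned coding bases, with no identical run over 17 bases.

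The promoters of IPMI1 and IPMI2, the small subunits of the isomerase, also shared a stretch. It is shown because these paralogues are the pair whose values separate most in library 4A. The 250 bases before each annotated start were aligned locally for all 21 pairs of the 7 genes, a comparison chosen after seeing the data. The highest score, 34, was that of IPMI1 with IPMI2, and the next was 19. The best alignment of this pair had no gap and was identical at 53 of 72 bases. It lay at chr3:21798380-21798451 on the minus strand, 148 to 77 bases before the start of IPMI1, and at chr2:17920537-17920608 on the plus strand, 110 to 39 bases before the start of IPMI2 (TAIR10.1, RefSeq). Capitals mark a match to the AC element, a motif known to bind MYB proteins.
IPMI1: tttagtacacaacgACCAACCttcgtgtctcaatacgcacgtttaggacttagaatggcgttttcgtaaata
IPMI2: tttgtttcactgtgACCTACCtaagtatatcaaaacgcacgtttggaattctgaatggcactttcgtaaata

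The AC element was searched on both strands as ACCTACC, as ACCAACC, as ACCTAAC and as ACCAAAC. It was present in 3 of the 7 promoters, those of IPMI1, IPMI2 and BAT5, against 13.7% of 27568 promoters of protein-coding genes. The G-box CACGTG, its own reverse complement, was in 0 of the 7 and in 6.46% of all. A match describes these letters only and is not a shown binding site.

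All 7 genes had the same order of libraries, highest in 3A, then 1A, then 2A, and lowest in 4A. Between 2A and 1A the step was small and 3 of the 7 genes were not listed as different. The other neighbours in this order, 3A with 1A and 2A with 4A, were past the authors' threshold in all 7 genes. The groups cannot be compared for overlap, because each library stands for 1 sample.

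**Figure D1:**
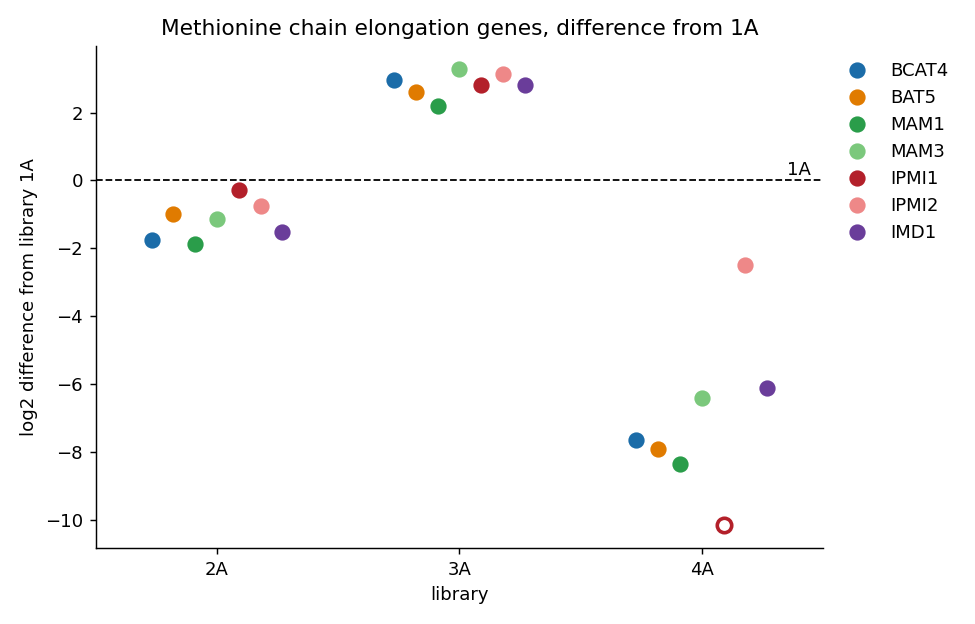
Log2 difference of each of the 7 genes in libraries 2A, 3A and 4A from library 1A (dashed line at 0), 1 point per gene and library. All points of 3A lie between 2.20 and 3.29, those of 2A lie between -1.86 and -0.27, and those of 4A lie at -2.48 or lower. The open circle is IPMI1 in 4A, where the fold is a whole number and may rest on the smallest level listed.

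BCAT4 is the cytosolic aminotransferase that removes the amino group of methionine. In the authors' deposited tables its log2 difference from 1A was -1.76 in 2A, 2.97 in 3A and -7.64 in 4A. It was thus 7.83-fold higher in 3A than in 1A and 199-fold lower in 4A than in 1A. The 4A library was also 58.8-fold below 2A and 1559-fold below 3A in the authors' deposited tables.

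BAT5 is the plastid carrier that brings the 2-oxo acid to the cycle. It was not listed between 2A and 1A, where the difference derived through another library was -0.98, just under the 2-fold threshold. The authors' deposited tables gave log2 differences from 1A of 2.61 in 3A and -7.92 in 4A. It was lower by 123-fold in 4A than in 2A.

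MAM1 and MAM3 are the methylthioalkylmalate synthases of the condensation step. MAM1 makes mainly short chains, and MAM3 can also make long ones. MAM1 had log2 differences from 1A of -1.86 in 2A, 2.20 in 3A and -8.35 in 4A in the authors' deposited tables. For MAM3 the authors' deposited tables gave -1.15 in 2A, 3.29 in 3A and -6.40 in 4A. The neighbouring genes thus moved in the same direction in each library, with MAM3 above MAM1 relative to 1A in all 3. The difference of MAM1 minus MAM3, each relative to 1A, was -0.71 in 2A, -1.09 in 3A and -1.95 in 4A on the log2 scale.

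IPMI1 and IPMI2 are small subunits that pair with a shared large subunit in the isomerase. Their log2 differences from 1A in 3A were 2.82 for IPMI1 and 3.14 for IPMI2 in the authors' deposited table. Neither was listed between 2A and 1A, where the derived differences were -0.27 for IPMI1 and -0.75 for IPMI2. In 4A they separated. IPMI2 had a log2 difference from 1A of -2.48 in the authors' deposited table, a 5.58-fold lower value. IPMI1 was called lower in 4A than in each other library in the authors' deposited tables, with folds that were all whole numbers, so no size is given. Among the 4096 genes lower in 4A than in 3A, IPMI2 held rank 630 by size.

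IMD1 is the dehydrogenase that closes the cycle. Its log2 difference from 1A was -1.52 in 2A, 2.80 in 3A and -6.11 in 4A in the authors' deposited tables. The 3A value was 20.0-fold above 2A, and 4A was 68.9-fold below 1A, in the authors' deposited tables.

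Precision in 4A was uneven among the genes. The smallest whole number that turned all 3 folds against 4A into whole numbers, within 1e-07, was 1 for IPMI1, 3 for BAT5, 17 for MAM1, 21 for BCAT4, 38 for MAM3, 55 for IMD1 and 188 for IPMI2. If the levels behind the folds were listed in equal steps, the 4A level could be as low as this number of steps. Rounding to the nearest step would then amount to as much as 50% of the IPMI1 level in 4A, 16.7% of the BAT5 level and 0.266% of the IPMI2 level. The step size and its relation to reads are not given in the sources used here.

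Each comparison is now given across the 7 genes with its background, the share of the 11508 listed genes called in that direction. In 2A over 1A, 4 of 7 were lower and 0 higher, where 24.5% of all genes were lower and 28.8% higher. No gene of the 7 was lower by 4-fold or more, against 11.9% of all. The median log2 difference of the 7, with derived values for the 3 genes not listed, was -1.15, and the genes called lower in that table had a median of -1.96.

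In 3A over 1A all 7 were higher, at a background of 21.3%, and all 7 were higher by 4-fold or more, at a background of 11%. The log2 differences of the 7 ran from 2.20 for MAM1 to 3.29 for MAM3, a range of 1.09 that was the narrowest of the 6 comparisons. Their median was 2.82, beside 2.06 for all genes called higher in the authors' deposited table. In the opposite direction 11.1% of all genes were lower.

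In 3A over 2A all 7 were higher as well, at backgrounds of 27.8% for 2-fold and 12.9% for 4-fold. BCAT4 led with a log2 difference of 4.73, followed by MAM3 with 4.44 and IMD1 with 4.33 in the authors' deposited table, and IPMI1 came last with 3.10. The median of the 7 was 4.06, and the genes called higher in that table had 1.88.

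For BCAT4, BAT5, MAM1, MAM3 and IMD1 the differences from 4A were larger in size than those among the other libraries. They were not for IPMI2, whose 3A over 1A and 3A over 2A differences were larger than those in 4A over 1A and 4A over 2A. In 4A over 1A all 7 were lower by 4-fold or more, where 32.9% of all genes were lower and 19.3% were lower by 4-fold. In 4A over 2A all 7 were lower and 6 were lower by 4-fold, at backgrounds of 21.2% and 10.7%. IPMI2 was the exception at 4-fold, with a log2 difference of -1.73 and an FDR of 1.99e-13 in the authors' deposited table. In 4A over 3A all 7 were lower by 4-fold or more, at backgrounds of 35.6% for 2-fold and 21.1% for 4-fold.

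The medians of the 7 were -7.64 in 4A over 1A, -5.88 in 4A over 2A and -10.53 in 4A over 3A. Without the whole-number folds they were -7.02, -5.56 and -9.69 in the same order of comparisons. All genes called lower had medians of -2.39, -2.01 and -2.43 in those tables. The 6 comparisons form 3 pairs that share no library. In 2A over 1A and 4A over 3A the differences of all 7, listed or derived, were below 0. In 4A over 1A and 3A over 2A they ran in opposite directions for all 7, as they did in 3A over 1A and 4A over 2A. For the last pair, 4A over 2A minus 3A over 1A was -4.86 for IPMI2 and -7.39 for IMD1, and it lay between -9.55 and -8.54 for BCAT4, BAT5, MAM1 and MAM3.

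**Figure D2:**
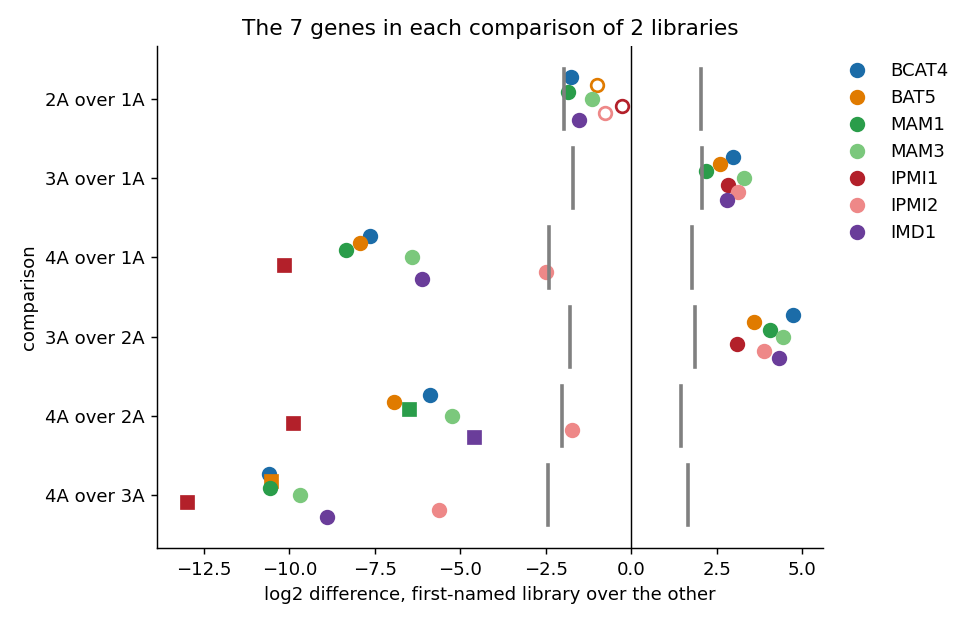
Log2 difference of the 7 genes in each of the 6 comparisons, first-named library over the other, 1 point per gene. Open circles are derived differences of genes not listed, squares are whole-number folds, and grey bars are the medians of all genes called higher or lower in that table. All 7 points lie right of 0 in both comparisons with 3A on top and left of 0 in the others, with IPMI2 nearest to 0 in the 3 comparisons with 4A.

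The enzymes that act on the lengthened amino acid were read from a list of 11 genes of the aliphatic core pathway. In 3A over 1A, 9 of the 11 were higher and 0 lower, at a background of 21.3% higher. In 3A over 2A, 7 were higher and 0 lower, at a background of 27.8% higher. In 4A, 6 of the 11 were lower than in 1A and 1 higher, 7 were lower than in 2A and 0 higher, and 8 were lower than in 3A and 0 higher. The backgrounds for lower were 32.9%, 21.2% and 35.6% in the same order. In 2A over 1A 3 were higher and 4 lower, beside backgrounds of 28.8% and 24.5%, so no direction is read from these counts. GGP1 and SUR1 were listed in none of the tables.

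GSTU20, a glutathione transferase assigned to the conjugation step, followed the chain elongation genes closely. Its log2 differences from 1A were -2.04 in 2A, 2.90 in 3A and -6.88 in 4A in the authors' deposited tables. CYP83A1, the cytochrome P450 that oxidises the aldoximes, had -2.12 in 2A, 2.76 in 3A and -8.69 in 4A in the authors' deposited tables. UGT74C1, a glucosyltransferase, had -1.04 in 2A, 2.44 in 3A and -4.14 in 4A in the authors' deposited tables. CYP79F1, which forms the aldoximes, had -2.92 in 2A and 1.40 in 3A in the authors' deposited tables and was called lower in 4A than in 1A with a whole-number fold. These 4 genes share the order of libraries seen in the chain elongation genes.

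Other core genes departed from that order. In GSTF11 and CYP79F2 the departure was only in the step between 2A and 1A, which was not called for CYP79F2. GSTF11, another glutathione transferase, was higher than in 1A in both 2A, at 1.78, and 3A, at 4.52, in the authors' deposited tables. Its derived difference from 1A in 4A was -3.27. The authors' deposited tables gave GSTF11 -5.05 in 4A over 2A and -7.79 in 4A over 3A. SOT17, a sulfotransferase, was higher than 1A by 2.13 in 2A and by 1.56 in 3A on the log2 scale in the authors' deposited tables, and the derived difference in 4A was 0.02. UGT74B1, a glucosyltransferase that also serves indole glucosinolates, was higher than 1A in all 3, at 1.83 in 2A, 1.18 in 3A and 1.08 in 4A in the authors' deposited tables. CYP79F2, the neighbouring paralogue of CYP79F1, had a log2 difference of 3.36 in 3A over 1A in the authors' deposited table and a derived difference of 0.19 in 2A, and was called lower in 4A than in 1A with a whole-number fold. Reads may be split between CYP79F1 and CYP79F2.

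The side chain is afterwards modified by oxygenases. Of 8 such genes, 4 were higher and 1 lower in 3A over 1A, at backgrounds of 21.3% and 11.1%. In 4A over 1A 1 was higher and 4 lower, where 32.5% of all genes were higher and 32.9% lower. In 2A over 1A, 1 was higher and 3 lower, at backgrounds of 28.8% and 24.5%. FMO GS-OX3, a flavin monooxygenase, had log2 differences from 1A of -1.26 in 2A, 2.34 in 3A and -1.59 in 4A in the authors' deposited tables. FMO GS-OX4 was higher in all 3 libraries than in 1A, at 2.11 in 2A, 1.66 in 3A and 2.80 in 4A in the authors' deposited tables. FMO GS-OX2 was lower in all 3, at -5.38 in 2A, -2.39 in 3A and -6.08 in 4A in the authors' deposited tables. AOP2 and AOP3 were listed in none of the tables.

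Of 10 regulators, 4 were listed at all. MYB28 had log2 differences from 1A of 1.81 in 3A and -6.30 in 4A in the authors' deposited tables, with a derived difference of -0.91 in 2A. Its order of libraries was that of the chain elongation genes. MYB29 and MYB76, related activators, were listed in none of the tables, nor were MYC3, SLIM1, SDI2 and IQD1. SDI1, a repressor of aliphatic glucosinolate synthesis that responds to sulfur shortage, was higher than 1A by 4.11 in 2A, 1.10 in 3A and 2.72 in 4A on the log2 scale in the authors' deposited tables. MYC4, a partner of the MYB activators, had -1.69 in 4A over 1A in the authors' deposited table. MYC2 had -1.12 in 4A over 2A in the authors' deposited table.

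Glucosinolate transporters were a list of 3. GTR3 had log2 differences of 4.48 in 3A over 1A and -4.26 in 4A over 1A in the authors' deposited tables, with a derived difference of 0.15 in 2A. GTR2 was lower than 1A in all 3 libraries, at -3.12 in 2A, -1.18 in 3A and -4.23 in 4A in the authors' deposited tables. All 3 transporters were lower in 4A than in each of the other libraries. The backgrounds for lower were 32.9% against 1A, 21.2% against 2A and 35.6% against 3A.

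**Figure D3:**
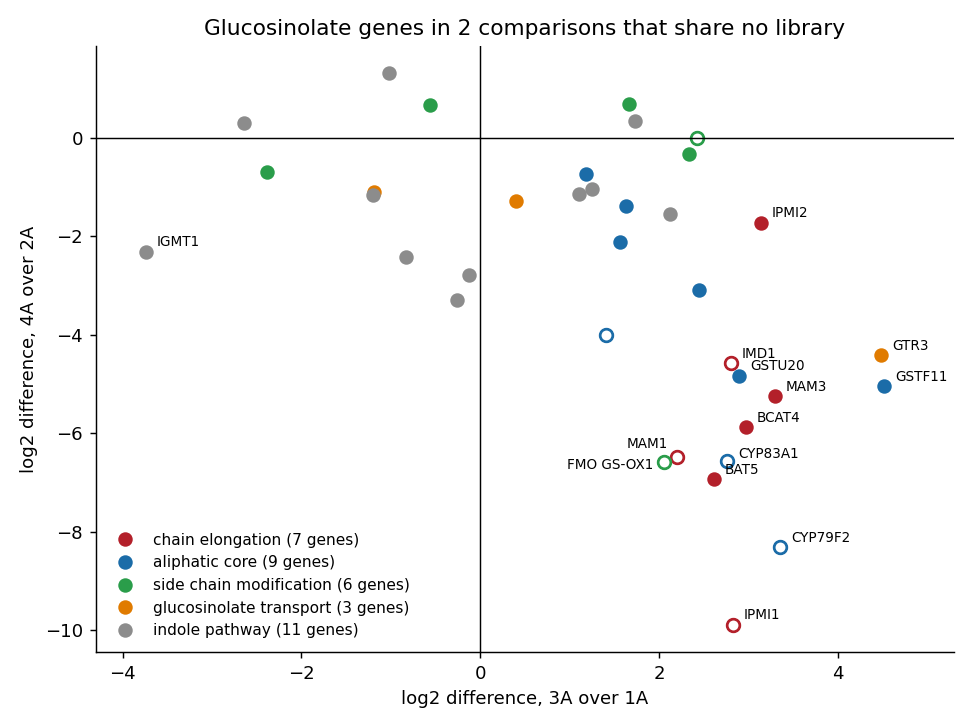
Log2 difference in 4A over 2A against that in 3A over 1A for the genes of 5 glucosinolate lists that have both values, listed or derived, 1 point per gene, with open circles for whole-number folds in 4A over 2A. The 7 chain elongation genes and the 9 aliphatic core genes all lie in the lower right, with IPMI2 at -1.73 the highest of the chain elongation genes, while indole pathway genes lie on both sides of 0 on the horizontal axis.

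The enzymes of leucine synthesis and the subunits shared with it were a list of 14, of which 6 were listed at least once. In 2A over 1A 1 was higher and 0 lower, at backgrounds of 28.8% and 24.5%. In 3A over 1A 1 was higher and 1 lower, at 21.3% and 11.1%. In 4A over 1A 3 were higher, 1 of them with a whole-number fold, and 0 lower, at 32.5% and 32.9%. In 3A over 2A 2 were higher and 2 lower, at 27.8% and 19.7%. In 4A over 2A 2 were higher and 1 lower, at 8.48% and 21.2%. In 4A over 3A 3 were higher and 1 lower, at 19.6% and 35.6%. The share higher was under its background in the comparisons with 1A and near it in 4A over 3A. IPMS1 and IPMS2, the synthases related to MAM1 and MAM3, were listed in none of the tables, and neither were IPMI SSU1, IMD2, IMD3 and BCAT3. These are relatives of the chain elongation genes from the list of leucine synthesis and shared enzymes, and IPMI SSU1 is the direct neighbour of IPMI2 on chromosome 2.

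IIL1, the large subunit that serves both pathways, was higher by 1.47 in 3A over 1A and by 1.74 in 3A over 2A on the log2 scale in the authors' deposited tables. Its derived differences from 1A were -0.27 in 2A and -0.19 in 4A. The direction in 3A was therefore that of its small subunits IPMI1 and IPMI2, and no call was made for it between 4A and either 1A or 2A. In 4A over 3A IIL1 had -1.66 in the authors' deposited table, also the direction of IPMI1 and IPMI2. BCAT2, an aminotransferase related to BCAT4, ran the other way. It had -1.33 in 3A over 1A and 1.75 in 4A over 1A in the authors' deposited tables.

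Carriers related to BAT5 were a list of 5, and their differences were smaller. In 2A over 1A 3 were lower, at a background of 24.5%, and in 4A over 1A 4 were lower, at 32.9%. In 3A over 2A 4 were higher, at 27.8%, and in 4A over 3A 4 were lower, at 35.6%. None reached 4-fold, and none was listed in 4A over 2A. BASS2, the plastid pyruvate carrier, had -1.69 in 4A over 1A and -1.72 in 4A over 3A in the authors' deposited tables. None of the 5 was listed in 3A over 1A, the comparison in which BAT5 had 2.61 in the authors' deposited table.

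Markers of other tissues moved between the same libraries. Of all listed genes, 28.8% were higher and 24.5% lower in 2A over 1A, and 21.3% and 11.1% in 3A over 1A. The shares were 32.5% and 32.9% in 4A over 1A, and 27.8% and 19.7% in 3A over 2A. In 4A over 2A they were 8.48% and 21.2%, and in 4A over 3A they were 19.6% and 35.6%. All 13 photosynthetic genes were lower in 2A than in 1A, with a median log2 difference of -5.50, and lower in 4A than in 1A, with a median of -5.97. In 3A over 1A 7 of them were lower, with a median of -1.30 over those listed and values from -1.57 to -1.04. All 13 were higher in 3A over 2A, with a median of 4.21, beside 4.06 for the 7 chain elongation genes, and in 4A over 3A all 13 were lower, with a median of -5.47. The listed photosynthetic genes thus ran opposite to the chain elongation genes in 3A over 1A, and with them in 2A over 1A, 4A over 1A, 3A over 2A and 4A over 3A. In 4A over 2A 2 photosynthetic genes were higher and 5 lower. Of 6 phloem markers, 5 were lower in 2A over 1A, 0 were listed in 3A over 1A and 5 were lower in 4A over 1A, with values there from -5.59 to -1.47. Of the 6 phloem markers 5 were higher in 3A over 2A, in 4A over 2A 1 was higher and 5 lower, and in 4A over 3A 5 were lower. All 5 endodermis markers were higher in 3A than in 1A, 2 of them with whole-number folds. All 5 were lower in 4A than in 3A, where their median was -2.92. In 2A over 1A 3 of the 5 endodermis markers were higher and 0 lower, opposite to the listed chain elongation genes. Of these 3 markers, 2 had whole-number folds there. Of the 5 endodermis markers 4 were higher in 3A over 2A, and in 4A over 2A 2 were lower. In 4A over 1A 1 of the 5 endodermis markers was higher, with a whole-number fold, and 0 were lower. That share higher was under its background.

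All 6 root meristem markers were higher than in 1A in 2A, in 3A and in 4A, and all 6 were lower in 3A than in 2A, where 19.7% of all genes were lower. Against 1A, 3 of the 6 had whole-number folds in each of 2A, 3A and 4A. In 4A over 2A 1 of the 6 was lower and 0 higher, where 21.2% of all genes were lower and 8.48% higher. In 4A over 3A 5 were higher and 0 lower, where 19.6% of all genes were higher and 35.6% lower. Of 4 root hair markers, 4 were higher in 2A than in 1A, 1 in 3A and 4 in 4A. Of the root hair markers 2 were lower in 3A over 2A, 3 were higher in 4A over 2A and 4 were higher in 4A over 3A. Of 6 xylem markers, 5 were higher in 2A over 1A, 1 in 3A over 1A and 2 in 4A over 1A, with 1 lower there. Of the xylem markers 4 were lower in 3A over 2A, 3 were lower in 4A over 2A and 2 were higher in 4A over 3A. Of 6 cell cycle genes, 2 were higher in 2A over 1A, none was listed in 3A over 1A, and 2 were higher and 3 lower in 4A over 1A. None was listed in 3A over 2A, 2 were lower in 4A over 2A, and 2 were higher and 3 lower in 4A over 3A. The shares of all genes higher were 28.8% in 2A over 1A, 21.3% in 3A over 1A and 32.5% in 4A over 1A, where 32.9% were lower. The xylem share higher in 4A over 1A was near its background. So were the cell cycle shares higher in 2A over 1A and in 4A over 1A. Which of these markers stand at 0 in a library is not known from fold changes, and their part in the differences of the chain elongation genes was not tested.

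A likeness measure was used to find the genes whose pattern came nearest. It was the root-mean-square distance between log2 profiles over the 4 libraries, each centred on its own mean, and it was taken against the mean profile of the 7 genes for the 6653 genes with a full profile. The 10 nearest other genes were AT3G26460 at a distance of 0.198, MYB79 at 0.254, AT5G57785 at 0.304, GSTU20 at 0.401, LBD25 at 0.406, SCPL12 at 0.409, AT3G50290 at 0.428, AT5G17165 at 0.541, AT3G45070 at 0.547 and AGL12 at 0.553. Of these 10, GSTU20 alone had no whole-number fold, so the nearness of the other 9 can rest on the smallest level listed in a library. MYB28 came at place 18 with a distance of 0.640, FMO GS-OX1 at place 19 with 0.650 and CYP83A1 at place 24 with 0.690. The distances are a description over 4 libraries.

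Among the 7 genes themselves, 5 had patterns close to one another. Measured against the mean of the other 6, the distance was 0.307 for MAM3, 0.395 for BCAT4, 0.491 for BAT5, 0.539 for IMD1 and 0.554 for MAM1. IPMI1 and IPMI2 lay farther away, at 1.80 for IPMI1 and 2.17 for IPMI2, with IPMI1 lower and IPMI2 higher than the others in 4A.

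**Figure D4:**
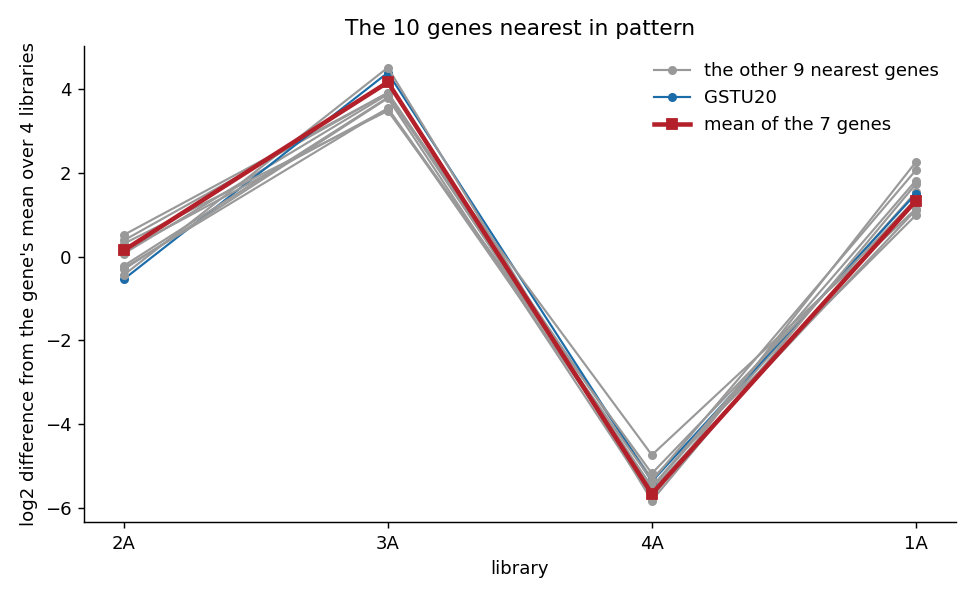
Log2 difference of the 10 nearest genes (grey, with GSTU20 in blue) and of the mean of the 7 chain elongation genes (red) from each gene's own mean over the 4 libraries, by library. The mean of the 7 and all 10 genes are highest in 3A and lowest in 4A, and GSTU20 lies 0.401 from the mean by the likeness measure.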

How the data were processed

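Per the labels' protocols, RNA was pooled within each group, poly-A RNA was sequenced, and biological replicates are mentioned too. Tools in the submitters' processing notes are Bowtie, Bowtie2 2.2.5, Cufflinks, HISAT and StringTie 1.0.4, with the build TAIR10 and no roles. Which test made the authors' calls is not stated there.

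The files were 6 deposited workbooks, 1 for each pair of 4 libraries. Per the file headers, the authors' log2 fold changes have the second library on top. The FDR values, which are adjusted p-values, were deposited by the authors beside them. First sheets held only genes that differed 2-fold or more with an FDR below 0.001. A further 36 columns of per-library values were not used, because their codes match no sample label. Depth is therefore unknown, and no counting interval was computed.

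Genes were matched by identifier to the RefSeq annotation of TAIR10.1 for symbols, coding sequences and promoters. For a gene not listed in a comparison, the difference was derived by adding the authors' log2 fold changes through another library. Over 22 such sums that could be checked for the 7 genes, the largest gap was 5.06e-14. A fold was called whole within a relative tolerance of 1e-09. With 1 sample per group there was no test, and genes were counted as the authors called them. The background is the 11508 genes listed at least once, not all genes measured. The joining and likeness steps and the whole-number rule were tested on simulated data, in part joined profiles resampled with added noise. The counting steps were not tested that way.

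The 7 genes and the 17 lists, with 143 genes, were chosen with earlier results of these data known. Named genes are the 7, up to 6 members of each related list with the largest folds that are not whole numbers in each comparison, and the 10 nearest by pattern. MYB28, FMO GS-OX1 and CYP83A1 in the likeness ranking and the genes named as not listed fall outside that rule and were chosen after their values were seen, as were the promoter alignment and the multipliers. Alternatives were a 4-fold threshold, a stricter FDR limit, the sheets of larger differences, folds that are not whole, sums over another library, and other likeness measures. Software was Python 3.11.15, NumPy 2.4.6, pandas 2.3.3, Biopython 1.88 and Matplotlib 3.10.9.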

Additional observations from a re-analysis of the deposited data

How the results depend on the processing

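Counts of the 7 genes kept their direction in every comparison under the stricter FDR limit of 1e-10, where no count changed. At a 4-fold threshold, 0 of the 7 were lower in 2A over 1A. The authors' shorter sheets hold only log2 values beyond 3 in size whose FDR is above 0. By that construction they held 0 of the 7 in 2A over 1A, 3A over 1A, 3A over 2A and 4A over 3A. They held 2 of the 7 in 4A over 1A and 6 in 4A over 2A. Without whole-number folds, 4 of the 7 were lower in 4A over 2A. Sums over another library left all 39 listed values of the 7 genes as they were. Fold changes taken from the same library levels must sum this way, so the agreement is no check of the values.

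Of the 10 nearest genes, 3 were kept with the Pearson correlation and 1 without genes that have whole-number folds, while 7 were kept with the median profile and 8, chosen after seeing the data, with a mean that leaves out IPMI1. The cause of the loss under the correlation was not tested, and the other follows from leaving out 9 of the 10.

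For the related lists, 31 counts at 4-fold were smaller by more than 1.5 times, 1 turned and 19 were not. In 2A over 1A these were 0 higher for leucine synthesis, 0 lower for carriers related to BAT5, 1 lower for side chains, 1 higher for the indole pathway and 1 lower for breakdown. In 3A over 1A they were 0 lower for leucine synthesis, 5 higher for the aliphatic core, 0 higher for regulators, 2 lower for the indole pathway, 0 lower for transport and 0 higher for sulfur supply. In 4A over 1A they were 1 higher for leucine synthesis, 0 lower for carriers, 2 lower for side chains, 1 lower for regulators, 1 lower for breakdown and 1 higher for sulfur supply. In 3A over 2A they were 1 lower for leucine synthesis, 0 higher for carriers, 2 lower for the indole pathway, 1 higher for transport and 1 higher for breakdown. In 4A over 2A they were 1 higher for leucine synthesis, 1 lower for regulators, 4 lower for the indole pathway, 1 lower for transport and 1 lower for sulfur supply. In 4A over 3A they were 0 lower for carriers, 1 lower for regulators, 3 lower for the indole pathway and 1 lower for sulfur supply. Sulfur supply in 3A over 2A turned, with 0 lower and 1 higher at 4-fold, against 5 lower and 1 higher at 2-fold. Without whole-number folds, 0 side chain genes were lower in 4A over 2A.

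No paired analysis was possible because each group had 1 sample. A library left out would leave its group empty. Depth is unknown, and folds against the lowest levels have no bound here.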

Other observations

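Indole glucosinolates are made from tryptophan. Of 15 indole pathway genes, 5 were higher and 2 lower in 2A over 1A, where 28.8% of all listed genes were higher and 24.5% lower. In 3A over 1A 4 were higher and 4 lower, at backgrounds of 21.3% and 11.1%, and in 4A over 1A 1 was higher and 4 lower, at backgrounds of 32.5% and 32.9%. In 3A over 2A 0 were higher and 6 lower, at backgrounds of 27.8% and 19.7%. In 4A over 2A 1 was higher and 8 lower, at backgrounds of 8.48% and 21.2%, the direction of the chain elongation genes there. In 4A over 3A 3 were higher and 5 lower, at backgrounds of 19.6% and 35.6%. CYP79B2, which starts the pathway, had log2 differences from 1A of 1.48 in 2A and 1.25 in 3A in the authors' deposited tables. CYP81F3, an indole ring hydroxylase, had 5.86 in 2A, 1.73 in 3A and 6.19 in 4A in the authors' deposited tables. IGMT1, a methyltransferase of the ring, was lower than in 1A in all 3, at -3.14 in 2A, -3.74 in 3A and -5.46 in 4A in the authors' deposited tables. MYB34, an activator of the indole branch, had 1.35 in 2A and 2.12 in 3A in the authors' deposited tables.

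Of 15 genes of sulfate assimilation and methionine supply, 5 were higher and 1 lower in 2A over 1A, 3 higher and 0 lower in 3A over 1A, and 3 higher and 2 lower in 4A over 1A. The shares higher in 2A over 1A and in 3A over 1A were near the backgrounds of 28.8% and 21.3%. In 4A over 1A the backgrounds were 32.5% higher and 32.9% lower, and both shares were under them. In 3A over 2A 1 was higher and 5 lower, at backgrounds of 27.8% and 19.7%. In 4A over 2A 0 were higher and 3 lower, at 8.48% and 21.2%. In 4A over 3A 2 were higher and 3 lower, at 19.6% and 35.6%. The share lower was near its background in 4A over 2A and under it in 4A over 3A. ATPS3, an ATP sulfurylase, had log2 differences of 3.02 in 2A over 1A and 1.43 in 3A over 1A in the authors' deposited tables. APR3, an adenosine phosphosulfate reductase, had 2.57 in 2A over 1A and 2.03 in 4A over 1A in the authors' deposited tables. MS2, a methionine synthase, had -3.46 in 2A over 1A, -3.76 in 4A over 1A and 3.90 in 3A over 2A in the authors' deposited tables. Of 9 breakdown genes, 1 was higher and 3 lower in 2A over 1A, at backgrounds of 28.8% and 24.5%. In 3A over 1A 1 was higher and 0 lower, at a background of 21.3% higher. In 4A over 1A 1 was higher and 3 lower, at backgrounds of 32.5% and 32.9%. Between 3A and 2A, 3 were higher in 3A and 0 lower, at backgrounds of 27.8% and 19.7%. In 4A over 2A none was listed. In 4A over 3A 1 was higher and 2 lower, at backgrounds of 19.6% and 35.6%. The shares lower in 4A over 1A and higher in 3A over 2A were near their backgrounds. NSP1, a nitrile specifier protein, had -1.38 in 2A over 1A and -2.08 in 4A over 1A in the authors' deposited tables, and NSP5 had 1.11 and 1.68 in the same comparisons of the authors' deposited tables. PEN2, an atypical myrosinase, had -1.96 in 2A over 1A and 1.17 in 3A over 2A in the authors' deposited tables. The gene higher in 3A over 1A was ESM1, which favours isothiocyanates among the breakdown products, and it had -2.34 in 2A over 1A, 3.16 in 3A over 1A and -1.23 in 4A over 1A in the authors' deposited tables.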
